A study of Rattus norvegicus with 52 samples.

Results

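The cells described here are luminal cells of the mammary gland that were sorted from 9-week-old rats with and without p27, by the surface profile Cd24+ Cd29LOW Cd49b- PNA-, which the labels call mature luminal. They were chosen by their labels, as the count files of luminal cells of 9 weeks in the 2 genotypes, and come to 4 of the 52 samples of the study, 2 Cdkn1b-/- and 2 Cdkn1b+/+. Both genotypes were virgin females that the study calls ACI rats, homozygous littermates from heterozygous crosses. The series' description names the knockout alleles em1 (DEL-32) and em4 (DEL-65), states that they contributed equally to the data of either genotype, and reports cataracts in all knockout animals. By the study's methods the mutations were made with CRISPR-Cas9 in Sprague-Dawley rats and bred onto ACI. Cells were sorted from rats of an early and of a late backcross generation, so Sprague-Dawley segments may remain, more so in the early generation. The labels do not give the allele, the generation or the number of rats behind a single library, so p-values measure the spread between libraries, which may be partly technical. The deletion is in the whole animal and not in luminal cells alone.

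p27, the product of Cdkn1b, is an inhibitor of cyclin-dependent kinases that holds cells out of the cell cycle. The luminal layer of the mammary gland holds hormone-sensing cells, which carry the estrogen and progesterone receptors and answer with paracrine signals, and progenitor or alveolar cells, which make milk under prolactin through Stat5. In a virgin gland milk protein genes are usually far below their level in lactation. The comparison asks which genes differ in luminal cells when p27 is missing.

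The 4 libraries held between 21545344 and 25327714 gene counts, with 62.8% to 70.9% of all tallied reads not assigned to a gene. Levels are given as CPM, that is, counts scaled to library size with edgeR's TMM factors. The genotypes did not separate in the profile as a whole. Over all genes tested, Spearman's rho was 0.956 between the 2 Cdkn1b-/- libraries and 0.962 between the 2 Cdkn1b+/+ libraries, while the highest of the pairs across genotypes, the first Cdkn1b-/- with the second Cdkn1b+/+ library, reached 0.970. Among the genes tested, 22.8% differed by more than 2-fold between the 2 Cdkn1b-/- libraries and 18.7% between the 2 Cdkn1b+/+ libraries.

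The markers placed the cells in the luminal layer, and in the Cdkn1b+/+ libraries they went against the name mature luminal in its usual sense of hormone-sensing. The 9 pan-luminal markers, keratins and claudins among them, summed to between 28764 and 56544 CPM in the 4 libraries. The 12 basal markers summed to between 533 and 1056 CPM here and to between 22336 and 45653 CPM in sorted basal cells. The 11 hormone-sensing markers in the files summed to 491 and 540 CPM in the Cdkn1b+/+ libraries, below the 1314 and 1001 CPM of Cdkn1b+/+ PNA+ progenitors and the 1114 and 762 CPM of Cdkn1b+/+ Cd49b+ progenitors. In Cdkn1b-/- rats the order was not the same in both libraries. They held 226 and 811 CPM of these markers, the first below and the second above all 4 Cdkn1b-/- progenitor libraries, which ranged from 448 to 753 CPM. Esr1, the estrogen receptor, was at 7.10 and 8.47 CPM here and between 14.3 and 21.4 CPM in the 4 Cdkn1b+/+ progenitor libraries. Of the hormone-sensing list, Tnfsf11 was listed at 0 in every library. The 7 progenitor markers in the files summed to 1241 and 2333 CPM here and to between 794 and 1710 CPM in the Cdkn1b+/+ progenitor libraries, with overlap. The cells are therefore called Cd49b-PNA- luminal cells below.

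**Figure D1:**
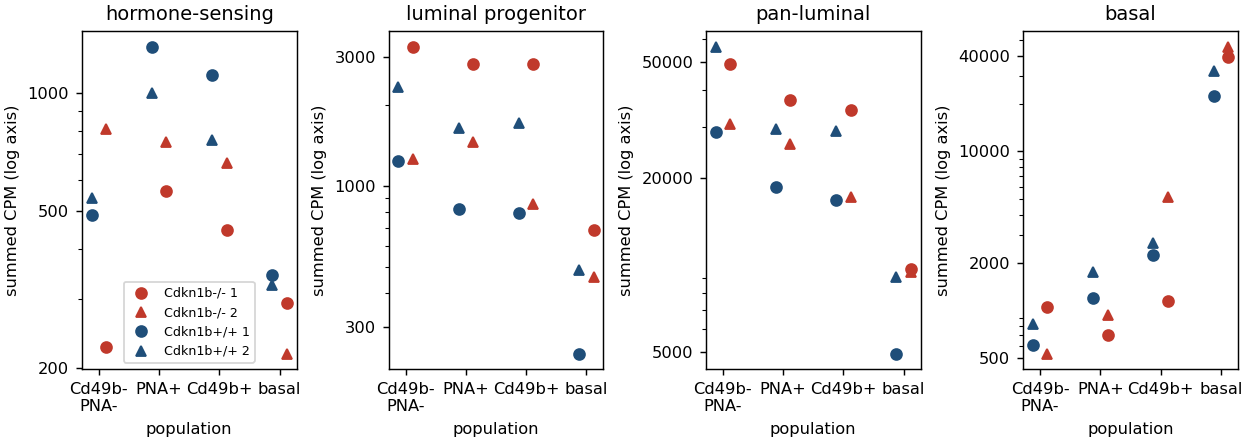
Summed CPM (log axis) of 4 marker lists in every 9-week library, by sorted population, with Cdkn1b-/- in red and Cdkn1b+/+ in blue, and circles and triangles for the first and the second library of a group. In Cdkn1b+/+ libraries the hormone-sensing sum was lower in Cd49b-PNA- cells (491 and 540 CPM) than in PNA+ or Cd49b+ cells, while the Cdkn1b-/- libraries of Cd49b-PNA- cells were at 226 and 811 CPM, below and above all Cdkn1b-/- progenitor libraries.

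Markers of other cells were low to moderate. Lymphoid markers summed to 2.55 and 5.304 CPM in the Cdkn1b-/- libraries and to 2.34 and 2.04 CPM in the Cdkn1b+/+ libraries. The 10 myeloid markers summed to 37.6 CPM in both Cdkn1b-/- libraries and to 12.04 and 23.6 CPM in the Cdkn1b+/+ libraries. The genotypes did not overlap in either sum, as they did not for 29.6% of single genes tested. Fibroblast markers summed to 960 and 115 CPM in Cdkn1b-/- and to 365 and 851 CPM in Cdkn1b+/+ libraries, and endothelial markers to between 99.1 and 150 CPM in all 4. Their part in the results below was not tested. In bulk samples such as these, fewer cells of a type and less RNA per cell cannot be told apart.

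Cdkn1b itself had 2.40 and 3.86 CPM in the Cdkn1b-/- libraries and 9.75 and 6.47 CPM in the Cdkn1b+/+ libraries. The groups did not overlap, but some RNA of the gene remained, and small deletions need not remove the transcript, so its level is only a partial check of the labels. The log2 fold change was -1.37 (standard error, SE, 0.37) and did not pass the test (adjusted p = 0.27 by the edgeR quasi-likelihood test, adjusted after Benjamini and Hochberg over 12809 genes, unadjusted p = 0.0024). Of the 50 genes next to Cdkn1b in the RefSeq annotation, 21 were tested, 0 passed by edgeR's quasi-likelihood test and 4 had an unadjusted p under 0.05, beside 916 of all 12809 genes.

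With p27 missing, 17 of 12809 genes passed an adjusted p of 0.05 (0.133%), 13 higher (0.101%) and 4 lower (0.0312%). Those that rose include the whey protein Wap, the antibody transporter Pigr, and a run of enzymes of metal, retinaldehyde, sulfate, NADPH and heme metabolism. Those that fell include Gp2, a glycoprotein that binds bacteria, and the interferon-induced Mx2. The fitted rise ranged from 2.45-fold to 25.4-fold and the fitted fall from 4.40-fold to 21.7-fold. All groups of 2 libraries were apart for these 17 genes, as they were for 29.6% of all genes tested.

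**Figure D2:**
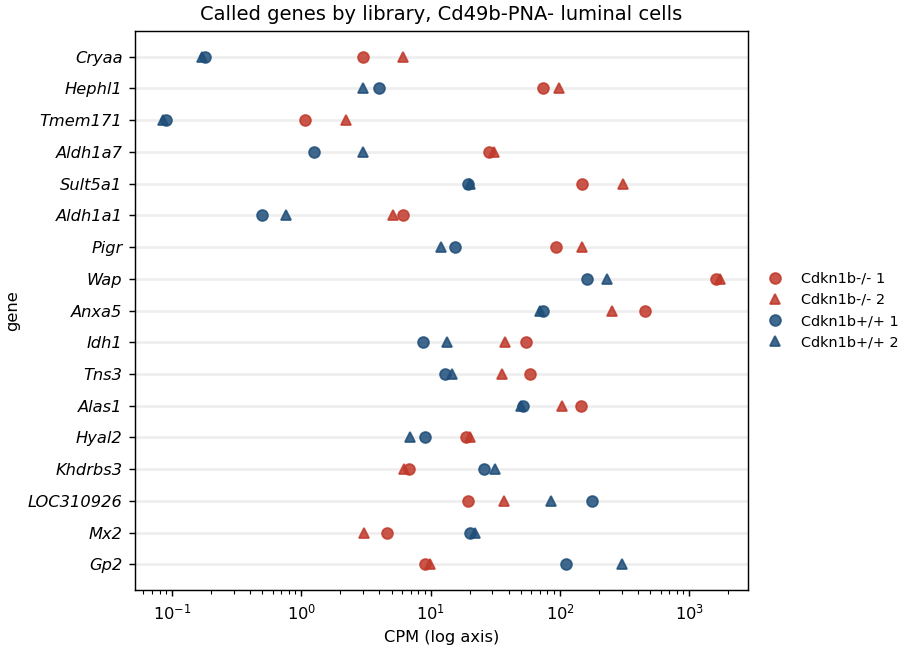
CPM (log axis) of the 17 genes that passed the test, in the 2 Cdkn1b-/- libraries (red) and the 2 Cdkn1b+/+ libraries (blue) of Cd49b-PNA- luminal cells, ordered by fold change. Levels run from 0.0851 CPM for Tmem171 to 1719 CPM for Wap, and for every gene both red points lie on one side of both blue points.

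Genes of secretion and of mucosal defence were among those that passed, in both directions. Wap, the whey acidic protein of rodent milk, was at 1621 and 1719 CPM in the Cdkn1b-/- libraries and at 163 and 232 CPM in the Cdkn1b+/+ libraries. Its log2 fold change was 3.08 (SE 0.53, adjusted p = 0.040 by the edgeR quasi-likelihood test). Pigr, the receptor that carries polymeric antibodies across the epithelium into milk, was at 92.3 and 149 CPM against 15.4 and 12.1 CPM, a log2 fold change of 3.13 (SE 0.44, adjusted p = 0.015). Both knockout libraries were several times above both controls for each gene. Gp2, a membrane glycoprotein that binds bacterial fimbriae, went the other way. It was at 9.09 and 9.96 CPM without p27 and at 111 and 302 CPM with it, and fell by 4.44 on the log2 scale (SE 0.70, adjusted p = 0.026).

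Most of the other genes that rose encode enzymes. Hephl1, a relative of the copper ferroxidase hephaestin, had the lowest p of all genes. It was at 74.3 and 98.4 CPM in Cdkn1b-/- and at 4.00 and 2.98 CPM in Cdkn1b+/+ libraries (log2 fold change 4.63, SE 0.46, adjusted p = 0.0015). Sult5a1, a member of the sulfotransferase family, was at 148 and 305 CPM against 19.3 and 20.1 CPM (log2 fold change 3.52, adjusted p = 0.013). The controls were close together for both genes, and the second knockout library was the higher in both. Aldh1a1 and Aldh1a7 are closely related aldehyde dehydrogenases, the first of which makes retinoic acid. Aldh1a7 was at 28.0 and 30.7 CPM against 1.26 and 2.98 CPM (log2 fold change 3.79, adjusted p = 0.031), and the less abundant Aldh1a1 at 6.13 and 5.07 CPM against 0.494 and 0.766 CPM (log2 fold change 3.14, adjusted p = 0.018). Since reads of near-identical stretches can be lost or misplaced between these copies, the split between them is uncertain.

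Idh1, the cytosolic isocitrate dehydrogenase that makes NADPH, was at 54.7 and 37.7 CPM without p27 and at 8.67 and 13.4 CPM with it (log2 fold change 2.06, SE 0.28, adjusted p = 0.013). Alas1, the rate-limiting enzyme of heme synthesis, was at 147 and 104 CPM against 51.4 and 49.9 CPM (log2 fold change 1.30, adjusted p = 0.039). Hyal2, a hyaluronidase, was at 18.8 and 20.2 CPM against 8.99 and 6.94 CPM (log2 fold change 1.29, adjusted p = 0.040). Alas1 and Hyal2 had the smallest fold changes of the 13 genes that rose.

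The remaining genes that rose have other roles. Anxa5, a calcium-dependent phospholipid-binding protein, was at 451 and 250 CPM against 73.6 and 69.4 CPM (log2 fold change 2.29, SE 0.30, adjusted p = 0.013). Tns3, a tensin of focal adhesions, was at 58.4 and 35.6 CPM against 12.9 and 14.6 CPM (log2 fold change 1.78, adjusted p = 0.025). For both genes the first knockout library was the highest. Cryaa, the lens small heat shock protein alpha-A-crystallin, and Tmem171, a membrane protein, rested on few reads. Cryaa had 59 and 131 counts in Cdkn1b-/- and 4 and 4 in Cdkn1b+/+ libraries, a ratio of the summed counts, scaled to library size, of 26.5 (95% Clopper-Pearson interval 13.2 to 62.2, counting error only, adjusted p = 0.025 by the edgeR quasi-likelihood test). Tmem171 had 21 and 48 counts against 2 and 2, a ratio of 19.2 (95% Clopper-Pearson interval 7.17 to 72.5, adjusted p = 0.040).

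Besides Gp2, 3 genes fell. Khdrbs3, an RNA-binding protein related to Sam68, was at 6.84 and 6.19 CPM in Cdkn1b-/- and at 25.9 and 31.5 CPM in Cdkn1b+/+ libraries (log2 fold change -2.14, SE 0.32, adjusted p = 0.023). Mx2, an interferon-induced GTPase, was at 4.60 and 3.02 CPM against 20.3 and 22.0 CPM (log2 fold change -2.47, adjusted p = 0.034). LOC310926, a locus without a gene name, was at 19.4 and 36.9 CPM against 176 and 85.9 CPM and was nearest the threshold (log2 fold change -2.22, adjusted p = 0.047). Just outside it were Tnc (adjusted p = 0.077) and Zfp703 (adjusted p = 0.089).

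These calls rest on the spread that was shared with the other populations of the same age and on each of the 4 libraries. With the 4 libraries alone, 0 genes passed by edgeR's quasi-likelihood test (499 at an unadjusted p under 0.05, and 66 by DESeq2), and without 1 library 0 passed when either Cdkn1b+/+ library was left out, 5 without the first and 8 without the second Cdkn1b-/- library. All 17 genes kept their direction in each of these fits. Since the libraries of the genotypes were apart for all 17, refitting the same counts could hardly reverse a sign. In addition, the first and second libraries of one genotype deviated alike in other populations (Pearson's r across genes from 0.39 to 0.68 between Cd49b-PNA- cells and PNA+, Cd49b+ or basal cells, genes not being independent replicates), so the 16 libraries of the fit were not independent and its p-values may be too small.

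The 8 genes of each direction with the next lowest p-values did not pass, and the 2 libraries of each genotype were apart for all 16. On the higher side, Tnc, the matrix protein tenascin C, was at 20.3 and 15.9 CPM against 5.08 and 2.34 CPM. Fkbp5, an Hsp90 co-chaperone whose gene answers to glucocorticoids and progesterone, was at 24.6 and 57.0 CPM against 7.15 and 7.53 CPM (adjusted p = 0.089). Lsp1, an actin-binding protein best known from leukocytes, was at 56.8 and 25.4 CPM against 6.20 and 4.43 CPM, and Adgre5, an adhesion receptor, at 44.1 and 35.5 CPM against 9.93 and 16.6 CPM. Zfp703, Bet1l and Tdg completed this side with log2 fold changes from 1.00 to 1.36. Loxl4, a lysyl oxidase relative, had 23 and 39 counts against 1 and 1, a ratio scaled to library size of 34.5 (95% Clopper-Pearson interval 9.16 to 291). On the lower side stood RT1-CE14 and RT1-T24-1, class I histocompatibility genes of a multigene family whose reads can be misplaced between members, at 34.1 and 34.1 against 95.9 and 66.3 CPM and at 3.58 and 2.28 against 11.7 and 7.53 CPM. Serpinb9, an inhibitor of granzyme B, was at 15.6 and 20.2 CPM against 43.9 and 142 CPM, and Klf2, Extl1, Slc25a33, Hsph1 and Oas1a had log2 fold changes from -2.05 to -0.84.

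Hsph1 belongs to the cytosolic heat shock genes, which encode chaperones that hold and refold proteins under Hsf1. Of the 22 genes of this list, 0 passed the test in either direction, yet 21 had a negative fold change, 11 had an unadjusted p under 0.05 (all lower, against 299 of 12809 genes on the lower side), and in 16 both Cdkn1b-/- libraries were below both Cdkn1b+/+ libraries (13.9% of all genes tested). The median log2 fold change was -0.81, beside 0.03 over all genes tested. Summed over the list, the Cdkn1b-/- libraries held 11559 and 15781 CPM and the Cdkn1b+/+ libraries 30107 and 24366 CPM. Hspb1 (Hsp27) was at 295 and 416 CPM against 1424 and 2226 CPM (log2 fold change -2.36, SE 0.62, adjusted p = 0.26 by the edgeR quasi-likelihood test). Hsph1 (Hsp110) was at 445 and 550 CPM against 1389 and 1669 CPM (log2 fold change -1.62, adjusted p = 0.18). Hsp90ab1 was at 2254 and 2037 CPM against 3833 and 4205 CPM, and Hspa8, the constitutive Hsc70, at 1385 and 997 CPM against 2193 and 2376 CPM. Values of Hspa1a and Hspa1b are uncertain singly, since these copies are near-identical, and Hsp90aa1 was listed at no more than 0.298 CPM in any of the 4 libraries. Of 15 chaperones of the endoplasmic reticulum 10 had a positive fold change and 0 an unadjusted p under 0.05, with a median of 0.05.

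**Figure D3:**
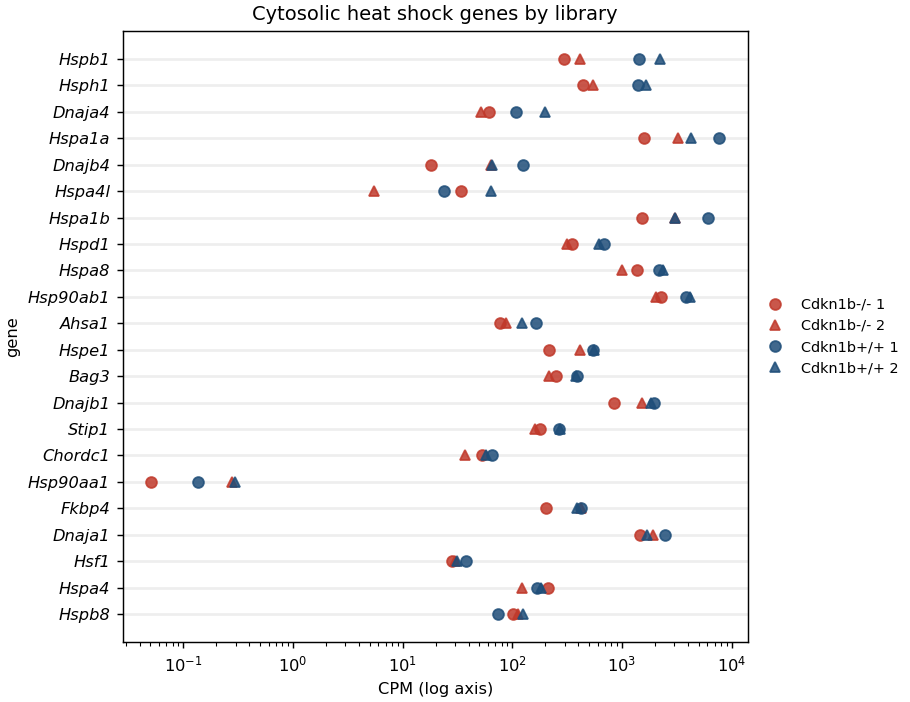
CPM (log axis) of the 22 cytosolic heat shock genes in the 4 libraries of Cd49b-PNA- luminal cells, with Cdkn1b-/- in red and Cdkn1b+/+ in blue, ordered by fold change. Both red points lie left of both blue points in 16 genes, and Hspb8 is the one gene of the list with a positive fold change.

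Many promoters of heat shock genes, though not all, hold a sequence feature that the comparison did not use. The 8-base core GAANNTTC of the heat shock element reads the same on both strands. It was found in 11 of the 18 promoters of the list that RefSeq's GRCr8 table holds (61.1%), each of 300 bases. The promoters of Hspd1 and Hspe1 overlap on opposite strands and share the same match, which counts for both genes. The share was 5.7% among promoters of all genes tested and 8.59% among all 33469 promoters of the table. The 250 bases before the start of 3 heat shock genes with a match are shown, in the direction of the gene, with GAANNTTC in capitals. They are on the minus strand at chr12:26432302-26432551 (Hspb1), the plus strand at chr12:10427118-10427367 (Hsph1) and the minus strand at chr19:41431142-41431391 (Dnajb1), all in GRCr8.
Hspb1: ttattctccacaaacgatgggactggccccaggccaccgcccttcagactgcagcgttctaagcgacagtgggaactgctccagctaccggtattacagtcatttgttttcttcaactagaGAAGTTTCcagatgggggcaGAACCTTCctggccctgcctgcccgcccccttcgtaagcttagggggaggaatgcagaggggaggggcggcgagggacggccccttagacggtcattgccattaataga
Hsph1: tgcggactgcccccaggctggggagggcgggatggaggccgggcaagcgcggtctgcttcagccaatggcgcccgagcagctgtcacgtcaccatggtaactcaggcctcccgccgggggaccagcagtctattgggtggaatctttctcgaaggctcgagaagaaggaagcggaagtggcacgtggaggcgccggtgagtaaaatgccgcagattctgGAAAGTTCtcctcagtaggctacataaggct
Dnajb1: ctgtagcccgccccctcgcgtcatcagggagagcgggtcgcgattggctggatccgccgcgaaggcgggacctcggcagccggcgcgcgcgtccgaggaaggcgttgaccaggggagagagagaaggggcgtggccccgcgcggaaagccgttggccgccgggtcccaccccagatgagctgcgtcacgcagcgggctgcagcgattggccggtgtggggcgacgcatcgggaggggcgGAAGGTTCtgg

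A match is a description of the letters and not a bound site. Hspb1 holds 2 matches and Hsph1 and Dnajb1 1 each. Dnajb1, the Hsp40 co-chaperone, was at 844 and 1513 CPM against 1953 and 1855 CPM (log2 fold change -0.69, adjusted p = 0.86 by the edgeR quasi-likelihood test).

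Most milk genes differed widely between libraries of one genotype, while some, Wap and Csn1s2b among them, did not. Of the 13 milk and secretion genes tested, Wap rose and the other 12 did not pass, 11 of 13 had a positive fold change, and the median was 0.47. In 4 of the 13 both knockout libraries were above both controls (15.7% of all genes tested), and 9 overlapped. Csn1s2b, a casein, had 6367 and 8066 counts against 5917 and 5663. Csn2, the beta-casein, was at 45502 and 113002 CPM in the Cdkn1b-/- libraries and at 19953 and 1472 CPM in the Cdkn1b+/+ libraries (log2 fold change 2.89, SE 1.51, adjusted p = 0.77). The knockout libraries were both higher, but the controls differed from each other by more than 10 times. Csn3, the kappa-casein, was at 55615 and 25519 CPM against 28642 and 24130 CPM and overlapped (log2 fold change 0.62, adjusted p = 0.97). Glycam1, a mucin-like milk protein, was at 3616 and 15836 CPM against 2147 and 113 CPM. Together the milk genes took 157578 and 185509 CPM of the Cdkn1b-/- libraries and 93129 and 55092 CPM of the Cdkn1b+/+ libraries. Without the first Cdkn1b-/- library the median of the list turned to -0.047.

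The Stat5-type letters TTCNNNGAA, which read the same on both strands, were in 5 of the 13 promoters of the milk list (38.5%). They were in 6.82% of promoters of all genes tested and in 8.87% of all promoters of the table. Of the 17 genes that passed the test, 13 had a promoter in the table, and 2 of these held TTCNNNGAA (15.4%) and 1 GAANNTTC (7.69%). With 4 of the 17 genes without a promoter, nothing is read from these counts. The 250 bases before the start of Csn2, on the plus strand at chr14:20601574-20601823 in GRCr8, are shown for the casein with the highest level in any of the 4 libraries, with TTCNNNGAA in capitals.
Csn2: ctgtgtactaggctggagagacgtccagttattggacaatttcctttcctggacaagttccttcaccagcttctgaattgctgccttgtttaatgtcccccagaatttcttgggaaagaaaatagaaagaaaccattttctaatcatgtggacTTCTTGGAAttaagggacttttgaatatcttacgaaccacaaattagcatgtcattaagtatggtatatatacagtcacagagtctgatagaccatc

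No difference was detected in the prolactin and Stat5 genes. Of 9 tested, 0 had an unadjusted p under 0.05, beside 916 of all 12809 genes. All 9 overlapped between genotypes, as did 9017 of all 12809 genes, and the median log2 fold change was 0.09. Stat5a was at 152 and 144 CPM against 172 and 84.9 CPM, and Cish, a feedback target of Stat5, at 369 and 217 CPM against 250 and 300 CPM. Among the 16 lipid synthesis genes 15 had a positive fold change (6801 of all 12809 genes did), 0 passed, and the median was 0.36. In 6 of the 16 both knockout libraries were above both controls (15.7% of all genes tested). The lowest p-values belonged to Dgat2, which makes triglycerides, at 53.7 and 62.6 CPM against 23.7 and 39.0 CPM, Me1, the malic enzyme, at 419 and 314 CPM against 165 and 233 CPM, and Lpl, the lipoprotein lipase, at 432 and 404 CPM against 340 and 263 CPM. Of 13 cholesterol synthesis genes 0 had an unadjusted p under 0.05, and their median was 0.12.

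Of the 12 mucosal defence genes, Pigr rose, Gp2 fell and 10 did not pass, with a median log2 fold change of 1.28. C3, the third complement component, was at 320 and 1514 CPM against 178 and 43.1 CPM (log2 fold change 3.05, SE 0.99, adjusted p = 0.40 by the edgeR quasi-likelihood test). Lpo, the lactoperoxidase of milk, was at 23.9 and 35.4 CPM against 9.44 and 2.98 CPM. Lcn2, an iron-withholding lipocalin, ranged from 55.4 to 5110 CPM over the 4 libraries and overlapped. The myeloid marker Lyz2, which is also on this list, was at 17.0 and 8.93 CPM against 3.19 and 6.68 CPM.

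Of 15 interferon-stimulated genes, Mx2 fell and 14 did not pass. In all, 13 had a negative fold change, in 10 both knockout libraries were below both controls (13.9% of all genes tested), and the median was -0.70. Oas1a, which makes the signal that activates RNase L, was at 3.98 and 3.95 CPM against 14.8 and 18.0 CPM (log2 fold change -2.05, adjusted p = 0.18). Isg15 was at 12.2 and 16.1 CPM against 29.8 and 34.8 CPM, and Usp18, which removes Isg15 from proteins, at 0.613 and 0.419 CPM against 2.34 and 4.64 CPM. Ifit2 went the other way in 1 library, with 8.27 and 63.8 CPM against 12.2 and 3.75 CPM. Of the 18 immediate early genes, 14 had a negative fold change and 0 passed, with a median of -0.43. In 12 both knockout libraries were below both controls (13.9% of all genes tested). In 4 the unadjusted p was under 0.05, all lower, against 299 of 12809 genes on the lower side. Fos was at 4183 and 4422 CPM against 6995 and 7441 CPM (adjusted p = 0.47). Of 6 class II histocompatibility genes tested, 0 passed and the median was -0.82.

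**Figure D4:**
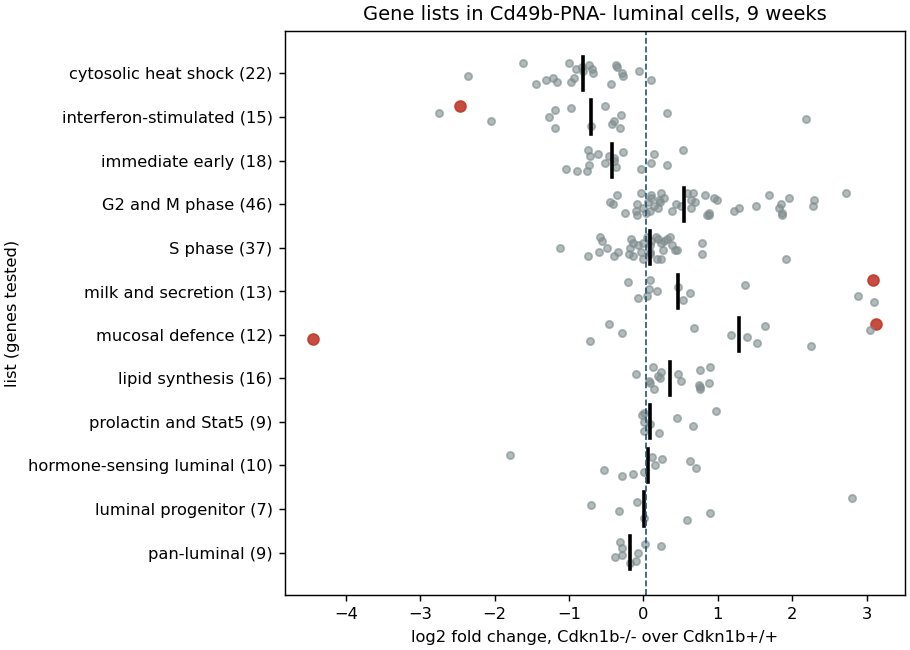
Log2 fold change of each gene tested in 12 lists in Cd49b-PNA- luminal cells (grey points, and red where the adjusted p was under 0.05), with the median of each list as a black bar and the median of all genes tested as a dashed line at 0.03. The medians run from -0.81 for cytosolic heat shock genes to 1.28 for mucosal defence genes, and 4 genes are red, Mx2, Wap, Pigr and Gp2.

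Genes of the G2 and M phases leaned higher without p27, at low levels. Of 46 tested, 0 passed and 37 had a positive fold change, with a median of 0.55. In 10 the unadjusted p was under 0.05 (all higher, against 617 of 12809 genes on the higher side). Both knockout libraries were above both controls in 18 (15.7% of all genes tested), while 27 overlapped and 1 was below. Mki67, which encodes the proliferation marker Ki67, overlapped, with 65 and 139 counts against 131 and 60. Summed over the list, the Cdkn1b-/- libraries held 1087 and 998 CPM and the Cdkn1b+/+ libraries 1017 and 840 CPM, with overlap. Cdk1, the kinase of mitosis, was at 6.23 and 6.89 CPM against 2.56 and 1.49 CPM (log2 fold change 1.69, adjusted p = 0.67 by the edgeR quasi-likelihood test). Cenpa, the histone of centromeres, was at 3.06 and 2.98 CPM against 0.764 and 0.936 CPM, and Cdca3, which promotes entry into mitosis, at 4.03 and 10.5 CPM against 1.53 and 0.681 CPM. The 37 S phase genes tested had a median of 0.08 and 0 passed. Among 22 cyclin, kinase and inhibitor genes of the G1 phase 0 passed. Ccna2, the cyclin of S and G2 phases, was at 2.76 and 11.6 CPM against 1.89 and 0.426 CPM, and Ccnd1, cyclin D1, at 143 and 211 CPM against 598 and 171 CPM.

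No difference between genotypes was detected in the hormone-sensing genes. Of 10 tested 0 passed, and 9 overlapped, beside 9017 of all 12809 genes tested. Pgr, the progesterone receptor, was at 6.59 and 31.4 CPM against 17.2 and 14.8 CPM. Foxa1, a pioneer factor of the estrogen receptor, was at 9.55 and 24.8 CPM against 22.9 and 26.9 CPM. Esr1 was at 3.63 and 10.5 CPM against 7.10 and 8.47 CPM. These 3 genes were lowest in the first Cdkn1b-/- library. Cited1, a co-activator in hormone-sensing cells, was the 1 gene of the list without overlap, at 5.26 and 38.5 CPM against 53.2 and 98.2 CPM (log2 fold change -1.79, adjusted p = 0.48). Of the 12 steroid hormone targets tested 0 passed, with a median of 0.02, and Fkbp5 had the lowest p. Among 19 FGF and ErbB signalling genes 0 passed. Fgfr2, a receptor of stromal FGFs, was at 8.48 and 21.5 CPM against 34.5 and 62.5 CPM (adjusted p = 0.29), and Erbb2 at 55.4 and 54.3 CPM against 36.5 and 34.3 CPM (adjusted p = 0.53).

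Some genes differed more within a genotype than between genotypes, in an order that ran across the numbers of the libraries. Kit, the receptor that marks luminal progenitors, was at 309 CPM in the first and 51.9 CPM in the second Cdkn1b-/- library, and at 91.0 CPM in the first and 291 CPM in the second Cdkn1b+/+ library. Cd14 was at 1980 and 795 CPM and at 532 and 1324 CPM in the same order, and Lalba, the alpha-lactalbumin, at 16871 and 2870 CPM and at 8286 and 10238 CPM. Csn2, Glycam1 and Prom1 ran the opposite way, Prom1 with 16.4 and 213 CPM and 81.3 and 59.2 CPM. The same order held for Kit in PNA+ cells, at 268 and 71.2 CPM in Cdkn1b-/- and 58.7 and 254 CPM in Cdkn1b+/+ libraries, and in Cd49b+ cells, at 318 and 47.4 CPM and at 63.0 and 262 CPM. The order did not hold for all progenitor genes. Of the 7 tested, 4 (Kit, Cd14, Ehf and Aldh1a3) were higher in the first Cdkn1b-/- and the second Cdkn1b+/+ library, Hey1 was lower in both, and Sox10 and Elf5 were higher in the first library of either genotype. The order was noticed in the data, and the genes named for it were chosen after their values were seen.

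The 17 genes were set beside their values in the progenitors, PNA+ and Cd49b+ libraries together (LP), and in basal cells of the same age and genotypes. In LP, where 3.4% of genes passed (2.12% higher and 1.29% lower), all 17 passed in the same direction. The LP and basal libraries entered the same fit and its shared spread, and they deviated alike with the Cd49b-PNA- libraries. Neither population is therefore an independent check of the 17 genes. A test of the difference in fold change between Cd49b-PNA- cells and LP passed for 0 genes (edgeR's quasi-likelihood test, 224 of 12809 at an unadjusted p under 0.05, 0 by DESeq2), 1 of the 17 among them at the unadjusted level, Khdrbs3, with -2.14 here and -1.29 in LP. In basal cells 3 of the 17 passed, Wap, Pigr and Cryaa, where 0.0546% of all genes did. The difference from basal cells passed for 0 genes as well (562 at an unadjusted p under 0.05, and 5 by DESeq2). Of the 17 genes, 10 had an unadjusted p under 0.05 for this difference by edgeR's quasi-likelihood test. The 17 were chosen for their change in these same Cd49b-PNA- libraries, which favours a larger change here than in basal cells or LP. Idh1 had the widest separation in p, with a log2 fold change of 2.06 here and -0.48 in basal cells (difference 2.55, adjusted p = 0.16). Wap was the 1 gene of the 10 whose change was smaller here, at 3.08 against 4.59 in basal cells.

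**Figure D5:**
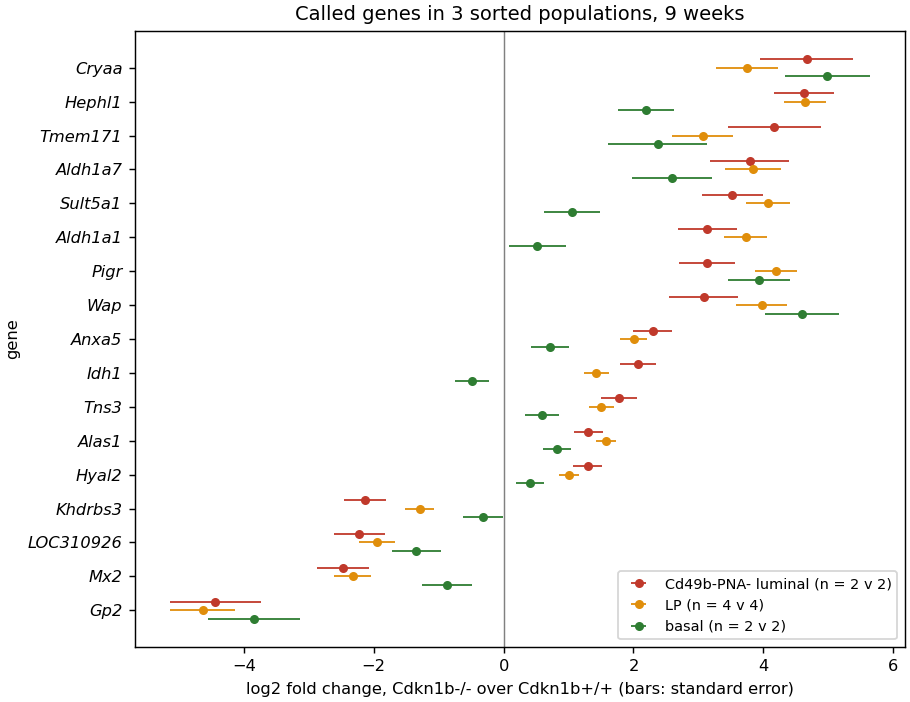
Log2 fold change, Cdkn1b-/- over Cdkn1b+/+, with its standard error, of the 17 genes in Cd49b-PNA- luminal cells (red), LP (orange) and basal cells (green) of 9 weeks. Red and orange points lie on the same side of 0 for every gene, and for Idh1 the basal value is -0.48 while the luminal values are 2.06 and 1.43.

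In younger rats the labels give luminal cells as Cd24+ Cd29LOW, with no Cd49b or PNA, so the populations differ and the values stand side by side. At 4 weeks, with 3 libraries per genotype, 0 of 12082 genes passed (edgeR's quasi-likelihood test, 435 at an unadjusted p under 0.05, 0 by DESeq2). At 6 weeks, with 2 per genotype, 0 of 11921 passed (1961 at an unadjusted p under 0.05, and 1410 by DESeq2), and 2269 passed without the first Cdkn1b-/- library. Of the 17 genes, 15 were tested at each age, and none of these 15 had an unadjusted p under 0.05. Of the 11 that rose at 9 weeks and were tested at 4 weeks, 7 had the same sign there, with a median log2 fold change of 0.06. At 6 weeks 5 of 11 had it, with a median of -0.16. Of the 4 that fell, 3 had the same sign at 4 weeks, with a median of -0.28, and 1 at 6 weeks, with a median of 1.13. Wap at 6 weeks was at 27.1 and 414 CPM in Cdkn1b-/- and at 0 and 12.2 CPM in Cdkn1b+/+ libraries, a log2 fold change of 5.17 that did not pass (adjusted p = 0.31). At 4 weeks it was between 17.8 and 80.2 CPM in all 6 libraries, with overlap. Markers of other cells moved with genotype at 6 weeks, where the median log2 fold change was 7.96 for 9 endothelial, 7.01 for 7 fibroblast and 3.62 for 12 basal genes, and their part in the 6-week values was not tested. Hsph1 was lower in knockout cells also there, at 83.5 and 61.1 CPM against 155 and 298 CPM (adjusted p = 0.19), at an age when the genotypes were apart for 49.7% of genes tested (23.2% with both knockout libraries above and 26.5% below).

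Luminal cells of rats given estradiol (E2) were sequenced in the same study. Their labels give the cell type only as luminal, and the titles carry Cd49b and PNA without a sign, so it is not known whether the sort was that of the Cd49b-PNA- cells. There were 2 control and 2 treated libraries of ACI and 1 of each of the BN strain. With strain as a term, 0 of 10687 genes passed (edgeR's quasi-likelihood test, 434 at an unadjusted p under 0.05), and DESeq2 was not run. Of the genes that rose without p27, 12 were tested and 10 had a positive fold change with E2, with a median of 1.89, and all 4 that fell had a negative one. The share of positive fold changes among all genes tested was not determined, so these signs have no background. For all 4 that fell the value was smaller than its standard error, as for Mx2 (-0.06, SE 0.95). Among the 12, Hephl1 was at 1.33 (SE 2.80). Only Wap, Sult5a1 and Anxa5, given next, reached the unadjusted 0.05 level in this edgeR fit. Wap was at 47.5 and 25.8 CPM in ACI control and at 30.0 and 716 CPM in ACI E2 libraries, and at 10.2 CPM in the BN control and 294 CPM in the BN E2 library (log2 fold change 3.83, adjusted p = 0.999). Sult5a1 was at 10.2 and 3.64 CPM in ACI control and at 78.6 and 62.2 CPM in ACI E2 libraries, while the BN libraries were at 70.1 CPM in the control and 94.4 CPM with E2. Anxa5 was at 102 and 119 CPM in ACI control and at 311 and 321 CPM in ACI E2 libraries, and at 243 CPM in the BN control and 267 CPM in the BN E2 library. In both genes the BN control was nearer the ACI E2 than the ACI control libraries.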

How the data were processed

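RNA of sorted cells was made into libraries from under 10 ng with a SMARTer low input kit and sequenced as single reads. Per the labels and the study's methods, the authors aligned reads to rn6 with STAR 2.5.1b and deposited raw counts per gene from HTSeq. The kit does not mark strand, so reads of a gene and of its antisense partner cannot be told apart. Rows of unassigned reads were left out of library sizes and tests.

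The deposited counts were tested with edgeR 4.0.16 in R 4.3.3 (TMM factors, filterByExpr with a minimum count of 10, glmQLFit and glmQLFTest, Benjamini-Hochberg adjustment at 0.05). The fit held all 16 libraries of 9 weeks in 6 groups, with PNA+ and Cd49b+ progenitors as one group per genotype, and 12809 of 17356 genes were tested. DESeq2 1.42.0 was an alternative. The scripts were tested on simulated data. Libraries of 6 and 4 weeks and of the E2 experiment were fitted apart. Across the numbers of the libraries, the deviations of the first libraries of the 2 genotypes from their group means correlated at r = -0.30 over 12809 genes, so the numbers were not taken as pairs.

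The genes and gene lists were chosen with earlier results of these data known. Genes named by rule were Cdkn1b, all that passed, the 8 of each direction with the next lowest p, Wap, Csn2, Csn3, Esr1, Pgr and Foxa1, and up to 3 members with the lowest p in each list. Other genes of the lists that are named, the motif GAANNTTC and the promoters shown were chosen after their values were seen. Promoters come from RefSeq's GRCr8 table, which was used for no coordinate of the count files. The chromatin immunoprecipitation files were not used here. Counting intervals cover counting error only.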

Additional observations from a re-analysis of the deposited data

Results flagged for a closer look

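In LP, 39 genes were examined in each genotype's group of 4 libraries. By Dixon's criterion, 4 of these genes had 1 library far from the other 3 of its group. Chance meets the criterion in about 1 of 20 groups, so about this many are expected by chance. Hephl1 was at 197 CPM in the second PNA+ library of Cdkn1b-/- rats, and Khdrbs3 at 14.2 and Klf2 at 226 CPM in the second Cd49b+ library of Cdkn1b-/- rats, each the highest of its 4 libraries. Tmem171 was at 0.2 CPM in the first PNA+ library of Cdkn1b+/+ rats.

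In 7 comparisons a gene went in opposite directions in Cd49b-PNA- luminal cells of 9 weeks and in another group. Idh1 had a log2 fold change of -0.48 in basal cells, and the test of this difference gave an adjusted p of 0.16 by edgeR. At 6 weeks Mx2 had a log2 fold change of 1.00, LOC310926 of 1.40 and Oas1a of 4.20, against negative values at 9 weeks. Fkbp5, positive at 9 weeks, had -1.08 at 6 weeks and -1.64 at 4 weeks, and Loxl4 had -2.82 at 6 weeks on almost no reads. The differences between ages were not tested.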

How the results depend on the processing

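All 17 genes that passed in Cd49b-PNA- luminal cells kept their direction wherever they were tested. Their libraries were apart by genotype, so refitting the same counts could hardly turn a sign. The number of genes that passed, 17 with edgeR on 16 libraries, depended on the fit. It was 17 with edgeR's RLE size factors in place of TMM factors, 14 without a filter on low counts and 13 with at least 10 counts in every library. It was 8 with PNA+ and Cd49b+ libraries as separate groups, 0 with the 4 libraries alone and 160 with DESeq2. The RLE size factors moved the median of all genes from 0.03 to -0.06. Chosen after seeing the data, a fit of the 12 luminal libraries called 15, one without the second Cd49b+ library of Cdkn1b-/- rats 19, and DESeq2 on the 4 libraries alone 66. The numbers of the libraries are not known to pair them. With the replicate number as a block 42 genes passed, and with crossed numbers, also chosen after seeing the data, 132. The difference from basal cells was called for 5 genes by DESeq2. At 6 weeks 54 genes passed without a filter, 1410 with DESeq2, and between 0 and 2269 without 1 library. The cause of these changes was not tested.

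Of 580 log2 fold changes of 39 genes under the alternatives, 428 kept direction and side of the threshold and 4 turned: Csn3 to -0.047 and Esr1 to 0.43 without the first Cdkn1b-/- library, Pgr to -1.27 without the second, and Esr1 to 0.001 without the second Cdkn1b+/+ library. Without 1 library Csn3 ranged from -0.047 to 1.09, Esr1 from -1.09 to 0.43 and Pgr from -1.27 to 0.97. Without 1 library, the median log2 fold change of heat shock genes lay between -0.90 and -0.72, of interferon-stimulated genes between -0.94 and -0.46, of mucosal defence genes between 0.45 and 1.28, of milk genes between -0.047 and 0.88 and of G2 and M phase genes between 0.20 and 0.91. It ranged from -1.32 to 0.72 for hormone-sensing, -0.85 to 0.20 for steroid target, 0.048 to 0.24 for prolactin and Stat5, -0.31 to 0.21 for endoplasmic reticulum chaperone, -0.43 to 0.72 for S phase and -1.53 to 0.62 for class II genes. Among markers of other cells it ranged from -0.76 to -0.0086 for endothelial, -2.16 to 0.52 for fibroblast, -0.42 to 0.57 for adipocyte, 0.96 to 1.32 for lymphoid and -0.47 to 1.45 for erythroid genes, and with the 4 libraries alone the adipocyte median was 0.67 and the lymphoid 0.044. Depth limits Cryaa, Tmem171 and Loxl4, which had from 1 to 4 counts in each Cdkn1b+/+ library.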
